A study of Mus musculus with 8 samples.

Results

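Basement membranes are thin sheets of matrix on which epithelia, vessels, nerves, muscle and fat cells rest. Networks of collagen IV and of laminin form them, and nidogen and the heparan sulfate proteoglycan perlecan link these networks. In skin, dermal fibroblasts supply part of these proteins, beside keratinocytes, endothelial cells and mural cells. The genes described here are Col4a1 and Col4a2 (the chains of the common collagen IV), Col15a1 and Col18a1 (collagens XV and XVIII of the basement membrane zone), Lama2, Lama4, Lamb1 and Lamc1 (laminin chains), Nid1 (nidogen) and Hspg2 (perlecan). The members were chosen by gene name, and every probe set annotated to exactly 1 of these 10 symbols was taken. This gave 17 probe sets of 9 genes, out of 17097 genes with a probe set, and Lama4 was not analysed here.

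The data were array profiles of sorted dermal fibroblasts from 8 mice, 1 array per animal. In the GW9662 group, the back skin of 4 mice received 150 nmol of GW9662 in 300 µl acetone 3 times a week for 6 months, starting at 12 months of age. The vehicle group of 4 mice of the same age received the same volume of acetone alone on the same schedule. GW9662 is a compound that blocks the nuclear receptor PPARG irreversibly, and PPARG directs fat cell differentiation. Strain and sex are not given in the sources used here. The compound was put on the skin, so cells other than fibroblasts were exposed too. The question addressed was how long-term blockade of PPARG alters transcripts of fibroblasts in old skin. The cells were Pdgfra and CD34 positive and lacked CD45, CD117, CD24, CD31 and EpCam, and RNA of 5000 cells was amplified over 21 cycles. One animal per group was taken on each collection day, and samples with the same number are treated below as pairs.

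Values are log2 signal intensities, and a change is the mean of GW9662 minus the mean of vehicle on that scale. The 12 fibroblast markers measured had mean signals of 10.12 to 10.29 after GW9662 and 10.01 to 10.26 in vehicle. Among them, Dcn (the proteoglycan decorin) measured 12.59 to 12.65 after GW9662 and 12.60 to 12.67 in vehicle, and the sort marker Cd34 measured 10.66 to 10.75 and 10.49 to 10.81. The probe set of Pdgfra, another sort marker, was dim, at 4.80 to 5.13 after GW9662 and 4.63 to 5.08 in vehicle, below the median gene (5.27). Mean signals of the 14 endothelial markers ran from 4.61 to 4.77 after GW9662 and from 4.54 to 4.85 in vehicle. For 9 pericyte and smooth muscle markers the ranges were 4.76 to 4.91 and 4.84 to 4.98, for 8 Schwann cell markers 5.52 to 5.61 and 5.47 to 5.66, and for 11 keratinocyte markers 4.60 to 4.66 and 4.62 to 4.66. In the same order of groups, 9 adipocyte markers had 4.25 to 4.37 and 4.29 to 4.45, 14 immune markers 4.23 to 4.26 and 4.24 to 4.27, and 7 melanocyte markers 4.79 to 4.97 and 4.69 to 4.95. The array scale has no 0, so no marker can be called absent. Vehicle 4 lay at 22.2 on the main axis of a principal component analysis, where the remaining samples lay between -10.4 and 5.49. For part of the genes, results are also given without vehicle 4 or its pair.

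All 9 genes were bright, each with a higher signal than at least 86.2% of all genes. None of them passed limma's test between the groups, in which 0 of 17097 genes (0%) had an adjusted p under 0.05. Of the 9 genes, 8 had a higher mean after GW9662 and 1 a lower one, with changes from -0.01 to 0.27 and a median of 0.13. Over all genes 47% had a change above 0, and the median was -0.005. No member had an unadjusted p under 0.05 in limma, against 3.38% of all genes, and the groups overlapped in every member, while 1.75% of all genes had groups that did not overlap. The adjusted p was 0.997 for each of the 9. Without GW9662 4, the unadjusted p was under 0.05 for 2 members, Col4a2 and Lama2, and for 5.19% of all genes in that fit. The median change of the members was then 0.23, and without vehicle 4 that median was 0.06. In a bulk sample, fewer cells that make a transcript and less of it per cell cannot be told apart.

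**Figure D1:**
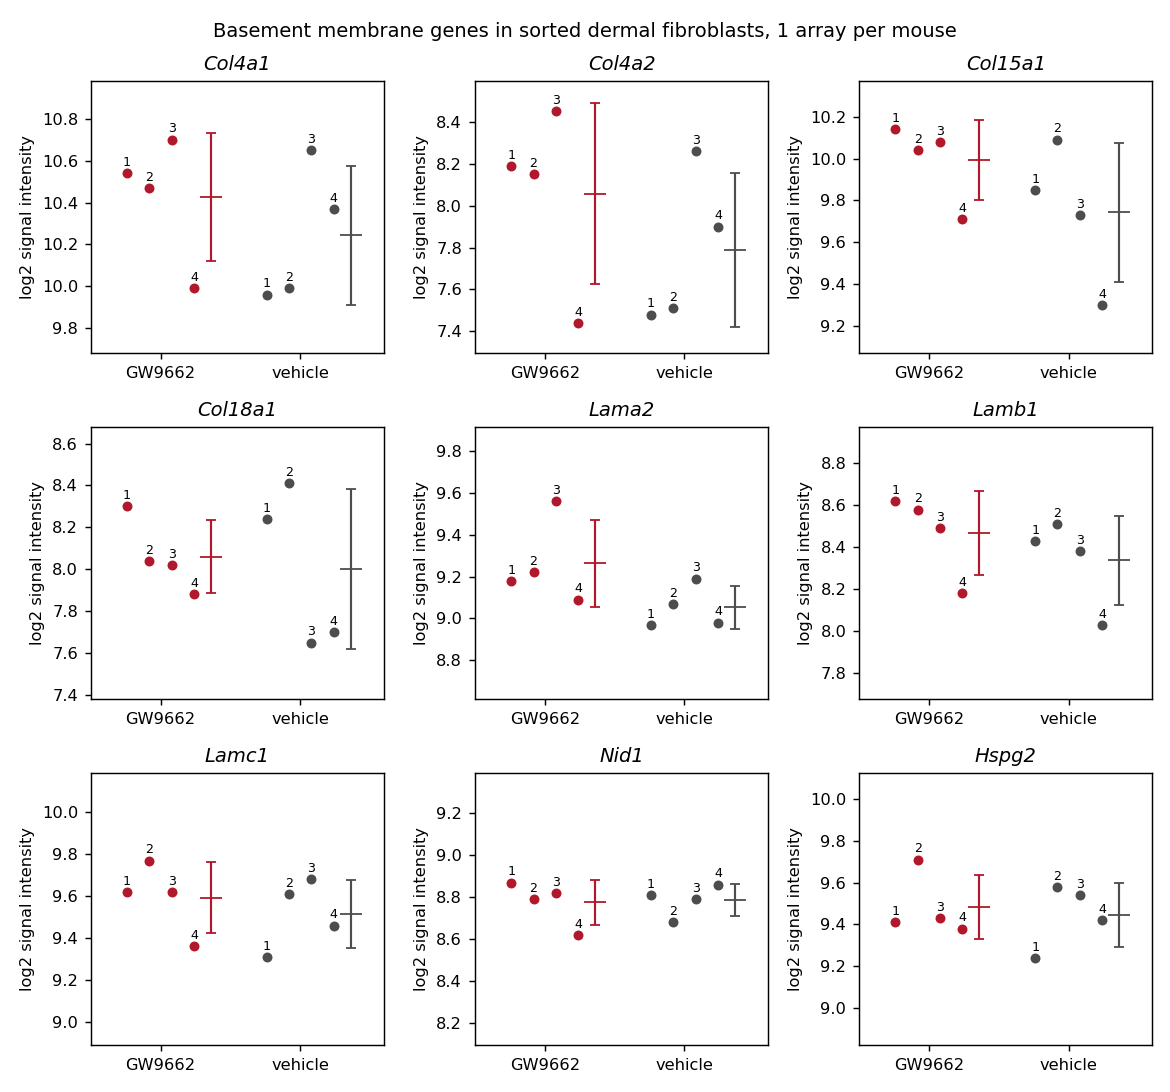
Log2 signal intensity of the 9 member genes (1 panel a gene, each with a span of 1.3 units) in 4 GW9662 and 4 vehicle arrays. Points are arrays with their replicate number, and the bar beside them is the mean ± SD. Col4a1 and Col4a2 share 3 low samples (GW9662 4, vehicle 1 and vehicle 2), and the groups overlap in all panels.

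Collagen IV held the member with the widest spread between animals, Col4a2, with a range of 1.01. The α1 and α2 chains of collagen IV form a heterotrimer. Both genes lie head to head on opposite strands, and their annotated transcripts overlap at their starts. Col4a1 measured 10.54, 10.47, 10.70 and 9.99 in GW9662 1 to 4, against 9.96, 9.99, 10.65 and 10.37 in vehicle 1 to 4. Thus GW9662 4, vehicle 1 and vehicle 2 were low, at 9.99 or less, and the other 5 samples were at 10.37 or more. Col4a2 measured 8.19, 8.15, 8.45 and 7.44 in GW9662 1 to 4, against 7.48, 7.51, 8.26 and 7.90 in vehicle 1 to 4. The same 3 samples were low, at 7.51 or less, with the other 5 at 7.90 or more, so the low samples came from both groups. Col4a1 averaged 10.43 ± 0.31 after GW9662 and 10.24 ± 0.33 in vehicle (SD, n = 4 each), a change of 0.18 ± 0.18 (SE) with a 95% interval from -0.22 to 0.58. Col4a2 averaged 8.06 ± 0.43 after GW9662 and 7.79 ± 0.37 in vehicle, a change of 0.27 ± 0.22 (SE) with a 95% interval from -0.23 to 0.77. The pair differences of Col4a2 were 0.71, 0.64, 0.19 and -0.46 for pairs 1 to 4. Pair 4 ran against the other 3, as it did for Col4a1 (0.58, 0.48, 0.05 and -0.38). Without pair 4 the changes were 0.37 for Col4a1 and 0.51 for Col4a2, and limma's adjusted p was 0.917 for both. With the replicate block and without pair 4, Col4a1, Col4a2 and Lama2 had an unadjusted p under 0.05 in limma, as had 5.76% of all genes, and the adjusted p was 0.841 for each. Leaving out 1 sample moved the Col4a1 change between 0.09 (without vehicle 1) and 0.33 (without GW9662 4). For Col4a2 the range was 0.14 (without GW9662 3) to 0.48 (without GW9662 4).

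The start region of both collagen IV genes is shown because their transcript levels varied together from animal to animal. A link between this region and the co-variation was not tested. RefSeq's promoter windows (build GRCm38.p6, 250 bases before to 50 after each annotated start) of Col4a1 on the minus strand and Col4a2 on the plus strand share 78 bases at chr8:11312777-11312854. Below they are read 5′ to 3′ on each gene's own strand, and capitals mark the 22 bases from one annotated start to the other. These are the first 22 bases of both annotated transcripts, not a gap between the genes.
Col4a1: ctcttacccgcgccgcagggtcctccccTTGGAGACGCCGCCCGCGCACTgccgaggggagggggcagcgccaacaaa
Col4a2: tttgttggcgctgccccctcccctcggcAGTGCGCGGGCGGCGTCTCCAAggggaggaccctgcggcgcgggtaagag
The lines are reverse complements of each other. G and C made up 73.1% of the shared stretch, 74% of the Col4a1 window and 73.7% of the Col4a2 window, against a median of 52.7% over all windows. The shares of windows with a motif given next were not matched for G and C content. The GC box GGGCGG, searched on both strands, occurred once in this stretch, and at least once in 7 of the 9 windows of members, against 35.7% of all 32851 windows. These 9 windows belong to 8 genes, as Lama4 and Lamc1 had no window. The hit in the shared stretch is the only one of Col4a1 and is counted for both collagen IV genes. The motif CCAAT was in 5 of the 9 windows, against 37.4% of all windows. No member window held TATAAA, found in 13.6% of all windows, or the single receptor motif AGGTCA of the PPAR family, found in 16.3%. The full PPAR element AGGTCANAGGTCA was in no member window and in 0.0396% of all windows. A window on the opposite strand overlapped that of another gene for 11.9% of the 27025 genes with a window, among them 3 members (Col4a1, Col4a2 and Lamb1).

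The levels of Col4a1 and Col4a2 tracked each other more closely than those of any other pair of members. Col4a1 spanned 0.74 and Col4a2 1.01 over the 8 samples, while the difference between them within a sample spanned 0.30. As a description, Pearson's r was 0.99 and Spearman's rho 0.96 over the 8 samples. Because 3 samples were low and 5 high in both genes, these coefficients rest in part on that gap, and neither cluster holds the 6 samples needed to test a correlation within it. Among the 5 high samples, the order from vehicle 4 through GW9662 2, GW9662 1 and vehicle 3 to GW9662 3 was the same for both genes. With group means subtracted r was 0.99, and it was 0.98 without the 2 samples farthest from the median of Col4a1. Among the other 17096 genes, Col4a2 ranked 1 by its r with Col4a1, and Col4a1 ranked 1 by its r with Col4a2. The second probe set of Col4a1, 1426348_PM_at, followed the first one with r = 0.94 and rho = 0.96 (exact permutation p = 0.00188 and 4.46e-04, adjusted 0.0104 and 0.00491 over 11 pairs of probe sets; r = 0.92 without the 2 farthest samples). All 8 samples passed through the same normalization and pairs share a collection day, so they are not wholly independent.

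The genes outside the list whose levels were most like Col4a1 were Pxdn, Septin11, Egfl7, Basp1 and Arsi, by Pearson's r over the 8 samples among the 8546 genes brighter than the median gene. Pxdn, which encodes peroxidasin, the enzyme that forms the sulfilimine crosslinks of collagen IV, had r = 0.97 and ranked 2 among all 17096 genes, next after Col4a2. It measured 7.99, 8.12, 8.34 and 7.70 in GW9662 1 to 4, against 7.55, 7.61, 8.29 and 8.04 in vehicle 1 to 4. The samples low in collagen IV were the lowest 3 here too. The change of Pxdn was 0.17 ± 0.18 (SE), and its r with Col4a1 stayed between 0.96 and 0.99 when each sample was left out in turn. Septin11, a cytoskeletal GTP-binding protein, had r = 0.97, or 0.80 when each gene's probe sets were averaged. Egfl7, a secreted protein known from endothelium, also had r = 0.97, or 0.75 with averaged probe sets, but moved by little, from 5.38 to 5.58 in all samples. Basp1 and Arsi, an arylsulfatase, had r = 0.94 and 0.93. These coefficients describe 8 samples that share a gap between 3 low and 5 high ones, and the genes were picked for them.

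**Figure D2:**
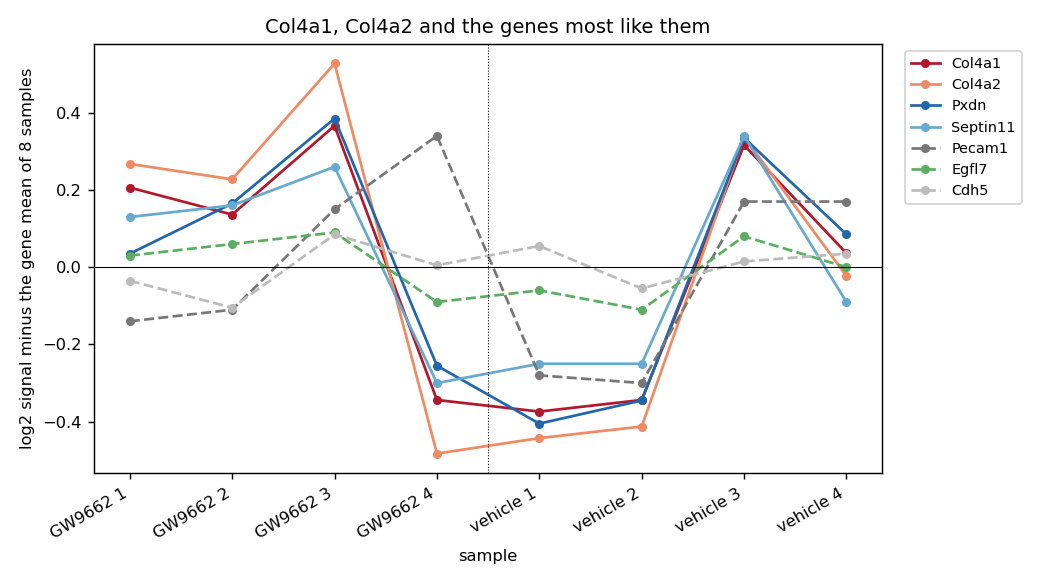
Log2 signal of Col4a1, Col4a2, Pxdn and Septin11 (solid lines) and of the endothelial markers Pecam1, Egfl7 and Cdh5 (dashed) in each sample, as deviation from the gene's mean of 8 samples. The solid lines share their low points at GW9662 4, vehicle 1 and vehicle 2, as does Egfl7 over a narrower range, while Pecam1 has its highest value at GW9662 4.

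Markers of cells that lie on or in basement membranes were set beside collagen IV. Pecam1 (CD31), an endothelial marker sorted against, measured 4.79, 4.82, 5.08 and 5.27 in GW9662 1 to 4, against 4.65, 4.63, 5.10 and 5.10 in vehicle 1 to 4. It was low in vehicle 1 and vehicle 2, as collagen IV was, but highest in GW9662 4, where collagen IV was low. Cdh5 (VE-cadherin) stayed between 3.97 and 4.16 in all 8. Egfl7 had its 3 lowest values in the samples low in collagen IV, with 5.52, 5.55, 5.58 and 5.40 in GW9662 1 to 4, against 5.43, 5.38, 5.57 and 5.49 in vehicle 1 to 4. The mean of all 14 endothelial markers was 4.61, 4.71, 4.77 and 4.77 in GW9662 1 to 4, against 4.54, 4.69, 4.82 and 4.85 in vehicle 1 to 4, so it was lowest in vehicle 1 and was not low in GW9662 4. Of these 14 markers, 7 had a higher and 7 a lower mean after GW9662. Kdr (VEGF receptor), which was brighter, measured 7.26, 8.10, 7.75 and 8.12 after GW9662 and 6.72, 7.89, 8.58 and 8.28 in vehicle. Kcnj8, a potassium channel of pericytes, was bright as well, from 7.13 to 7.91 after GW9662 and from 7.89 to 8.42 in vehicle. Its change was -0.39 ± 0.18 (SE), with an unadjusted p of 0.0544 and an adjusted p of 0.997 in limma. It was lower in 4 of 4 pairs, as were 5.93% of all genes. With the replicate block, limma's unadjusted p for Kcnj8 was 0.0174 and the adjusted p 0.966. The dim Myh11 of smooth muscle lay from 4.27 to 4.60 and from 4.26 to 5.14, a change of -0.27 ± 0.19 (SE). Rgs5, another pericyte gene, lay from 3.79 to 3.91 and from 3.78 to 4.34, and Notch3, a receptor of mural cells, from 4.43 to 4.68 and from 4.42 to 4.56. Of the 9 pericyte and smooth muscle markers, 4 had a higher and 5 a lower mean after GW9662, with a median change of -0.01. The part of such cells in the collagen IV values was not tested. Pparg, which encodes the receptor that GW9662 blocks, had a dim probe set, at 4.46 to 5.05 after GW9662 and 4.63 to 5.13 in vehicle. Its 3 lowest values were also in the samples low in collagen IV, with 4.46 in GW9662 4, 4.63 in vehicle 1 and 4.75 in vehicle 2. Its pair differences were 0.37, 0.15, 0.06 and -0.67 for pairs 1 to 4. Pparg was highest in vehicle 4, which for collagen IV was the lowest of the high samples. A link between Pparg and collagen IV was not tested.

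Collagens XV and XVIII carry sugar chains and bridge the basement membrane to the matrix below, and the end of collagen XVIII is known as the source of endostatin. Col15a1 measured 10.14, 10.04, 10.08 and 9.71 in GW9662 1 to 4, against 9.85, 10.09, 9.73 and 9.30 in vehicle 1 to 4. Both samples of pair 4 were the lowest of their groups, and vehicle 2 was the only vehicle sample within the range of GW9662 1 to 3. Its means were 9.99 ± 0.19 after GW9662 and 9.74 ± 0.33 in vehicle (SD, n = 4 each), a change of 0.25 ± 0.16 (SE) with a 95% interval from -0.10 to 0.60. The change was 0.10 without vehicle 4 and 0.37 without vehicle 2. With the replicate number as a block, limma's unadjusted p for Col15a1 was 0.0221 and the adjusted p 0.966. Col18a1 measured 8.30, 8.04, 8.02 and 7.88 in GW9662 1 to 4, against 8.24, 8.41, 7.65 and 7.70 in vehicle 1 to 4. The vehicle samples fell into a high pair and a low pair, and all GW9662 values lay within the vehicle range. The change of Col18a1 was 0.06 ± 0.17 (SE, 95% interval -0.32 to 0.44), and it was -0.06 without vehicle 3, -0.04 without vehicle 4 and 0.20 without vehicle 2. Its second probe set, 1426955_PM_at, spread less after GW9662 (7.72 ± 0.04) than in vehicle (7.58 ± 0.26, SD, n = 4 each), a difference in spread that was not tested.

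Laminins are trimers of an α, a β and a γ chain, and the β1 and γ1 chains encoded by Lamb1 and Lamc1 are shared by most of them. Lama2, the α2 chain known from muscle and nerve and mutated in a human congenital muscular dystrophy, had the smallest p of the members. Lama2 measured 9.18, 9.22, 9.56 and 9.09 in GW9662 1 to 4, against 8.97, 9.07, 9.19 and 8.98 in vehicle 1 to 4. GW9662 3 was the highest sample, and the groups overlapped only where vehicle 3 reached the lower GW9662 values. The means were 9.26 ± 0.21 after GW9662 and 9.05 ± 0.10 in vehicle (SD, n = 4 each), a change of 0.21 ± 0.10 (SE) with a 95% interval from -0.02 to 0.44 and an unadjusted p of 0.0657 in limma. It was higher after GW9662 in 4 of 4 pairs (0.21, 0.15, 0.37 and 0.11). With the replicate block, limma's unadjusted p for Lama2 was 0.0172 and the adjusted p 0.966, and 4.83% of all genes had an unadjusted p under 0.05 in that fit. The change was 0.11 without GW9662 3.

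Lamb1 measured 8.62, 8.58, 8.49 and 8.18 in GW9662 1 to 4, against 8.43, 8.51, 8.38 and 8.03 in vehicle 1 to 4. Pair 4 was low in both groups, and each pair was higher after GW9662 by 0.07 to 0.19. The change of Lamb1 was 0.13 ± 0.12 (SE, 95% interval -0.14 to 0.40), and 0.03 without vehicle 4. Lama2 and Lamb1 were the 2 members higher in 4 of 4 pairs, as were 5.46% of all genes. The 3 other probe sets of Lamb1 had changes of 0.0075 (1424114_PM_s_at), 0.0075 (1424113_PM_at) and 0.27 (1446180_PM_at, the dimmest, at 3.71 to 4.47). Among them 1424114_PM_s_at did not follow the brightest set, with r = -0.39 and rho = -0.25 (exact permutation p = 0.330 and 0.544, adjusted 0.404 and 0.598 over 11 pairs of probe sets). Without the 2 farthest samples its r was -0.32. For 1424113_PM_at r was 0.87 and rho 0.79 (exact permutation p = 0.00655 and 0.0254, adjusted 0.0240 and 0.0913), but r was 0.29 without the 2 farthest samples. For 1446180_PM_at r was 0.46 and rho 0.75 (exact permutation p = 0.245 and 0.0377, adjusted 0.337 and 0.0913), and r was 0.71 without the 2 farthest samples.

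Lamc1 measured 9.62, 9.77, 9.62 and 9.36 in GW9662 1 to 4, against 9.31, 9.61, 9.68 and 9.46 in vehicle 1 to 4. The groups covered nearly the same range, with a change of 0.08 ± 0.10 (SE, 95% interval -0.15 to 0.31), which was 0.0092 without vehicle 1. The second probe set of Lamc1, 1423885_PM_at, had a change of -0.04 ± 0.11 (SE), so the direction was not shared.

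The linkers of the collagen IV and laminin networks differed little between the groups. Nid1 measured 8.87, 8.79, 8.82 and 8.62 in GW9662 1 to 4, against 8.81, 8.68, 8.79 and 8.86 in vehicle 1 to 4. By its brightest probe set it had the narrowest range of the members, 0.25, and a change of -0.01 ± 0.07 (SE, 95% interval -0.17 to 0.15). The second set of Nid1, 1416808_PM_at, had a range of 0.51 and a change of -0.0025 ± 0.11 (SE). Between the 2 sets r was 0.49 and rho 0.32 (exact permutation p = 0.210 and 0.434, adjusted 0.329 and 0.531 over 11 pairs of probe sets). Without the 2 farthest samples r was -0.36. Hspg2 measured 9.41, 9.71, 9.43 and 9.38 in GW9662 1 to 4, against 9.24, 9.58, 9.54 and 9.42 in vehicle 1 to 4. Both samples of pair 2 were the highest of their groups. The change of Hspg2 was 0.04 ± 0.10 (SE, 95% interval -0.18 to 0.25), and its second probe set, 1418670_PM_s_at, had -0.07 ± 0.08 (SE). For Nid1 and Hspg2 the sign turned when single samples were left out, between -0.05 and 0.04 for Nid1 and between -0.04 and 0.08 for Hspg2.

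**Figure D3:**
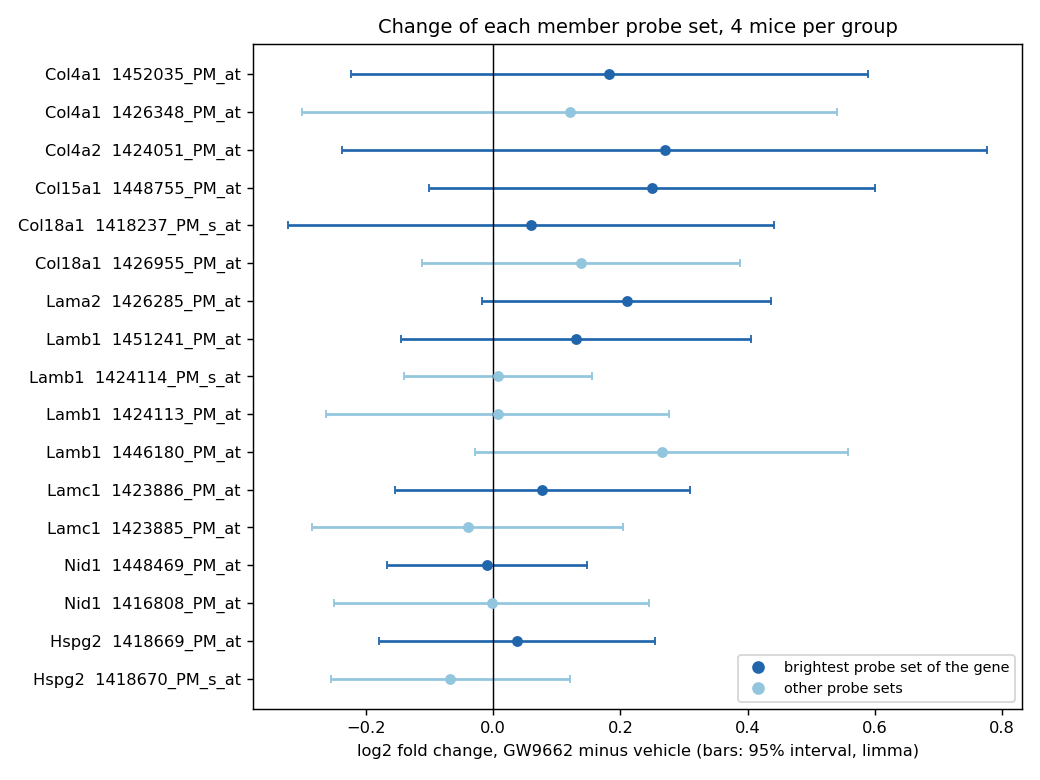
Log2 fold change (GW9662 minus vehicle, with limma's 95% interval) of the 17 member probe sets, 4 mice per group. Dark points are the brightest set of each gene. Every interval includes 0, with 13 estimates above and 4 below it.

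Over the 17 probe sets, 13 had a higher and 4 a lower mean after GW9662, with a median change of 0.08, where 47.8% of all 45037 probe sets other than controls had a change above 0. In limma 0 of the 17 had an adjusted p under 0.05 (0% of all probe sets) and 0 an unadjusted p under 0.05 (3.55% of all). The groups overlapped in each of the 17 (1.9% of all probe sets had groups that did not), and 2 of the 17 were higher in 4 of 4 pairs (5.4% of all). With the replicate block 2 of the 17 had an unadjusted p under 0.05 (4.85% of all), those of Lama2 and Col15a1. Probe sets of 1 gene share their transcript and are not separate evidence.

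The levels of the members were also compared with each other over the samples. Of the 36 pairs of members, 29 had a positive r over the 8 samples and 7 a negative one (median 0.34). After Benjamini-Hochberg adjustment over the 36, 2 pairs passed by Pearson's r and 2 by Spearman's rho in exact permutation tests, Col4a1 with Col4a2 and Col15a1 with Lamb1 in both. For Col4a1 with Col4a2 the adjusted exact permutation p was 0.00357 by r and 0.025 by rho, over samples with the gap described above. It was 0.0625 with group means subtracted and orders drawn within groups, and 0.05 without the 2 farthest samples, in each case the lowest that a single pair could reach. Col15a1 and Lamb1 had r = 0.95 and rho = 0.93 (exact permutation p = 2.48e-04 and 0.00223, adjusted 0.00446 and 0.0402). With group means subtracted r was again 0.95 and the adjusted exact permutation p 0.0938. The pair did not pass there, but a single pair could not go below 0.0625 in that setting, so it decides little. The 2 samples farthest from the median of Col15a1 were those of pair 4, and without them r was 0.87 with an exact permutation p of 0.0264 (adjusted 0.467). Without vehicle 4, the lowest in both genes, r was 0.88. These tests exchange samples freely across collection days, which pairs share. Lamb1 ranked 40 of 17096 genes by its r with Col15a1. Lamc1 and Hspg2 had r = 0.86 and rho = 0.79 (exact permutation p = 0.00422 and 0.0248, adjusted 0.0506 and 0.132), and r = 0.75 without the 2 farthest samples. Lamb1 and Lamc1, whose products join in 1 trimer, had r = 0.58 and rho = 0.51 (exact permutation p = 0.126 and 0.197, adjusted 0.378 and 0.577), and r = 0.38 without the 2 farthest samples. Col15a1 and Col18a1 had r = 0.76 and rho = 0.81 (exact permutation p = 0.0269 and 0.0218, adjusted 0.168 and 0.132), and r = 0.68 without the 2 farthest samples. Col18a1 and Col4a1 had r = -0.39 and rho = -0.35 (exact permutation p = 0.319 and 0.4, adjusted 0.675 and 0.67), and r = -0.51 without the 2 farthest samples.

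**Figure D4:**
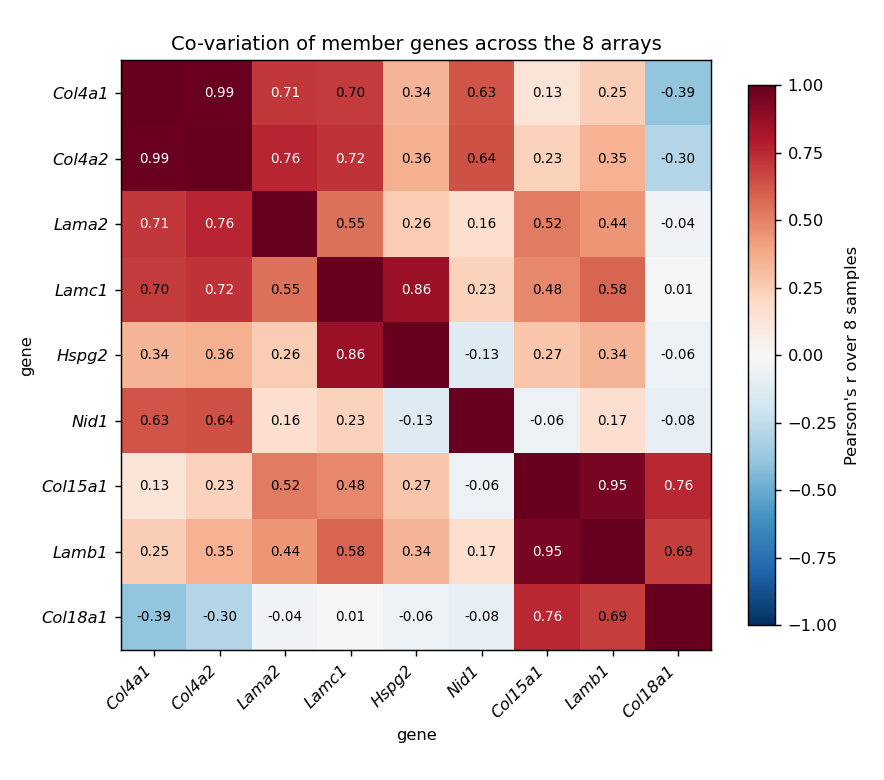
Pearson's r over 8 samples for each pair of the 9 member genes, on a colour scale from -1 to 1. Col4a1 with Col4a2 (0.99) and Col15a1 with Lamb1 (0.95) are the highest, and Col18a1 with Col4a1 (-0.39) is the lowest.

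The genes most like Lamc1, by the same rule, were Eif4h, a helper of translation initiation, Clcn7, a lysosomal chloride transporter, Cdc5l, a splicing factor, Col5a3, a chain of collagen V, and Trmt6, a subunit of a tRNA methyltransferase. Their r ran from 0.94 to 0.97 over the 8 samples. Col5a3 had the widest range of the 5, with 8.46, 8.61, 8.58 and 7.68 in GW9662 1 to 4, against 7.67, 8.25, 8.75 and 7.99 in vehicle 1 to 4. With averaged probe sets the r of the 5 ran from 0.71 to 0.90.

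Other genes of the basement membrane were set beside the members. Of 30 other structural genes measured (33 listed), 17 were higher and 13 lower after GW9662 by any amount, with a median of 0.025. At an unadjusted p under 0.05 in limma, 1 of the 30 was higher, Hmcn1 (hemicentin 1), and none lower. It measured 4.43, 4.52, 4.40 and 4.88 in GW9662 1 to 4, against 4.36, 4.23, 4.23 and 4.31 in vehicle 1 to 4. The probe set was dim, and its groups did not overlap, as in 1.75% of all genes. Its change was 0.28 ± 0.10 (SE), with an adjusted p of 0.997 in limma, and it was 0.17 without GW9662 4. Smoc2, a calcium-binding matrix protein, had a change of 0.28 ± 0.13 (SE), which was 0.15 without GW9662 1. Ntn4, a netrin that binds laminin γ1, had -0.26 ± 0.12 (SE) and was lower in 4 of 4 pairs, as were 5.93% of all genes.

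Of 18 receptors measured, 11 were higher and 7 lower (median 0.015). None had an unadjusted p under 0.05 in limma's main fit (all 8 samples, no replicate block). Itgb1, the β1 integrin chain common to most laminin and collagen receptors, measured 9.77, 9.58, 9.76 and 9.44 in GW9662 1 to 4, against 9.47, 9.51, 9.53 and 9.20 in vehicle 1 to 4. It was higher in 4 of 4 pairs, as were 5.46% of all genes, with a change of 0.21 ± 0.10 (SE). However, GW9662 4 lay below 3 of the vehicle samples, and the change was 0.13 without vehicle 4. Sdc3 (syndecan 3) and Itga9 (the α9 integrin chain) had changes of 0.12 ± 0.10 and -0.07 ± 0.06 (SE).

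Among 24 enzymes and helpers of collagen and laminin assembly, 18 were higher and 6 lower (median 0.09). Plod1, a lysyl hydroxylase, was at 0.26 ± 0.13 (SE; 0.14 without vehicle 4), Loxl4, a lysyl oxidase, at 0.22 ± 0.11 (0.14 without vehicle 4), and Loxl1, another lysyl oxidase, at -0.14 ± 0.07. Among 16 genes of degradation and its inhibitors, 10 were higher and 6 lower (median 0.07). Mmp3 (stromelysin) was at 0.62 ± 0.38 (SE), with 8.55, 7.70, 7.87 and 6.91 in GW9662 1 to 4, against 7.65, 7.69, 7.03 and 6.18 in vehicle 1 to 4. Both samples of pair 4 were again the lowest of their groups, and the change was 0.30 without vehicle 4 and 0.90 without GW9662 4. Timp1, an inhibitor of metalloproteinases, was at 0.28 ± 0.14 (SE; 0.16 without vehicle 4) and Mmp2, a collagen IV-degrading gelatinase, at 0.14 ± 0.08 (SE). No gene of these lists had an adjusted p under 0.05. In the assembly and degradation lists none had an unadjusted p under 0.05 in limma's main fit (all 8 samples, no replicate block). Over the 88 genes of the 4 lists, 1 had an unadjusted p under 0.05 in limma (3.38% of all genes). The count was 10 of the 88 with the replicate block (4.83% of all genes) and 15 of the 88 without GW9662 4 (5.19% of all genes). Of the 10, 3 were structural genes, 1 a receptor, 4 assembly genes and 2 degradation genes. Among them were Mmp3 and Plod1, with limma's unadjusted p at 0.00256 and 0.0137 and the adjusted p at 0.966 for both. Both were higher in 4 of 4 pairs, as were 5.46% of all genes. Of the sort markers, Epcam, Pdgfra and Kit had changes of 0.14 ± 0.07, 0.10 ± 0.12 and 0.05 ± 0.06 (SE).

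**Figure D5:**
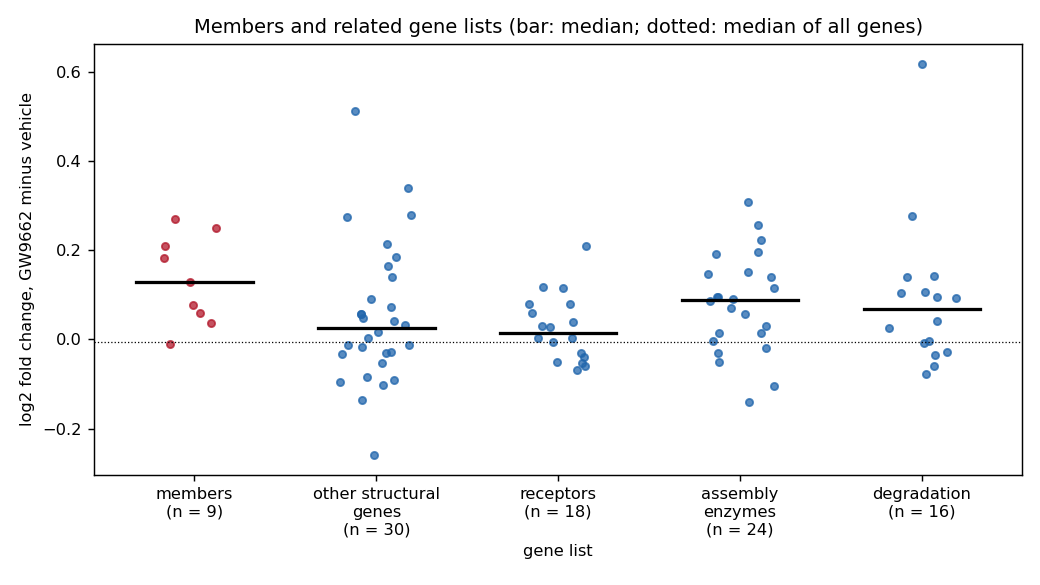
Log2 fold change (GW9662 minus vehicle) of each gene in the member list and 4 related lists, with the list's median as a bar and the median of all genes as a dotted line. Medians are 0.13 for the 9 members, 0.025, 0.015, 0.09 and 0.07 for the other lists in the order drawn, and -0.005 for all genes.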

How the data were processed

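The deposited values were log2 probe set signals that the authors made with RMA from the affy package, per the submitters' processing notes; no source used here states the log base, which was taken from the range of values (2.44 to 12.96). They were written to 2 decimals, with sample medians of 4.63 to 4.69, and arrays give no read depth, so precision rests on 4 samples a group. Of 45141 probe sets, 104 controls were left out. Gene names came from GEO's platform annotation, updated through RefSeq: 28898 probe sets had 1 gene, 551 several and 15692 were unnamed here. For a gene, the probe set with the highest mean over 8 samples stood for it. Groups were compared with limma 3.58.1 in R 4.3.3 over all 17097 genes, and again over all probe sets, with Benjamini-Hochberg adjustment and a threshold of 0.05, tested on simulated data. Correlations used all 40320 orders of the samples in exact two-sided permutation tests, adjusted over the 36 pairs of 9 measured genes.

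Samples with the same number were taken on the same day, per the labels' design text, and deviated together (r of deviations 0.114 to 0.203 within pairs, and up to 0.159 between samples of different numbers), so the replicate block was fitted as an alternative. Others were robust and trended variances, probe set means, filters on dim genes, scaling, array weights and leaving out samples. Named are all members, the 3 genes of smallest p in each related list and among sort markers, and the 5 brighter genes most correlated with Col4a1 and with Lamc1. Kcnj8, Kdr, Rgs5, Notch3, Myh11, Pecam1, Egfl7, Cdh5, Dcn, Cd34 and Pparg are shown as cell type checks. The members and lists were chosen with earlier results of these data known.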

Additional observations from a re-analysis of the deposited data

Results flagged for a closer look

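Of 34 groups of 4 samples tested for a sample far from the others, 3 were flagged, where chance flags about 1 in 20. The gap of the sample to its nearest neighbour, divided by the range of the group, was above Dixon's 95% critical value in each. In Lamb1 1424114_PM_s_at, GW9662 1 was at 7.33 and the other GW9662 samples at 7.55 to 7.58, a ratio of 0.88. In the dim Lamb1 1446180_PM_at, vehicle 3 was at 3.71 and the other vehicle samples at 4.02 to 4.07, a ratio of 0.861. In Hspg2 1418669_PM_at, GW9662 2 was at 9.71 and the other GW9662 samples at 9.38 to 9.43, a ratio of 0.848.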

How the results depend on the processing

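No member, and no gene of the related lists, had an adjusted p under 0.05 in limma under any alternative run. Of the 9 members, 2 had an unadjusted p under 0.05 with the replicate block (Lama2 and Col15a1, against 4.83% of all genes), and 3 with the block and without pair 4 (against 5.76% of all genes), a setting chosen after seeing the data. The sign of small changes turned: Hspg2 was -0.015 with the mean of its probe sets, Col18a1 -0.0167 and Nid1 0.0185 with array weights, and Nid1 1416808_PM_at 0.0009 after renewed quantile normalisation. Without pair 4, the changes were 0.0667 for Nid1 (with and without the replicate block), 0.03 for Nid1 1416808_PM_at, -0.0133 for Lamb1 1424114_PM_s_at, -0.0267 for Lamb1 1424113_PM_at, 0.0167 for Lamc1 1423885_PM_at and -0.03 for Pdgfra.

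Leaving out 1 sample moved Col18a1 between -0.0567 and 0.1967, Hspg2 between -0.0383 and 0.0825 and Nid1 between -0.045 and 0.0417. For single probe sets the ranges were -0.0192 to 0.2725 (Col4a1 1426348_PM_at), -0.0183 to 0.065 (Lamb1 1424114_PM_s_at), -0.0967 to 0.0775 (Lamb1 1424113_PM_at), -0.1108 to 0.0358 (Lamc1 1423885_PM_at) and -0.0633 to 0.0908 (Nid1 1416808_PM_at). The cause was not tested.

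The number of pairs of members that passed was 2, between 2 and 4 with 1 sample left out (4 without vehicle 4), and 0 with group means subtracted or the 2 farthest samples left out. In those last settings Col4a1 with Col4a2 had the smallest p the orders allow, while Col15a1 with Lamb1 did not, with exact permutation p of 0.00521 and 0.0264. Correlations with each pair's mean subtracted (the replicate block) were not run, since 4 pairs leave fewer than 6 independent values. The probe sets that stood for Pdgfra, Hmcn1, Pecam1, Cdh5, Rgs5, Notch3, Myh11, Pparg, Epcam and Kit had signals below that of the median gene. No measure of background was used.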
